A study of Gallus gallus with 6 samples.

Results

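Glycolysis and gluconeogenesis enzymes were followed in liver RNA of chickens that differ in their response to subgroup J avian leukosis virus (ALV-J), a chicken retrovirus. The rule names 8 enzymes, PCK1, PCK2, FBP1, ENO1, GAPDH, PGK1, LDHA and LDHB, matched by symbol without regard to case. Of these, 6 had a row in the table of 14481 protein-coding genes, 1 row each, and all 6 passed the filter, an average of at least 0.5 FPKM. No row carried the symbol PCK1 or PCK2, so these are not analysed here under their own names. A row named PEPCK, an older name that RefSeq lists as a synonym of PCK1, is described separately.

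The study compared 3 birds labelled ALV-J-resistant with 3 labelled ALV-J-susceptible, with 1 liver library of total RNA per bird. The labels give no breed, age, sex, infection status or diet for either group, and no treatment. The question was which liver genes differ in expression between the groups. Values are FPKM as the authors deposited them, that is fragments per kilobase of transcript, scaled to depth, so that levels of different genes can be set side by side. Differences are log2 fold changes of FPKM + 1, resistant over susceptible, tested with limma over all 9626 genes that passed the filter.

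Glycolysis splits glucose into pyruvate, and lactate dehydrogenase exchanges pyruvate with lactate. Gluconeogenesis in the liver runs most of the same steps backwards from lactate, amino acids and glycerol. GAPDH, PGK1 and ENO1 serve both directions, whereas FBP1 and phosphoenolpyruvate carboxykinase, the enzyme that PCK1 and PCK2 encode in its cytosolic and mitochondrial forms, bypass glycolytic steps that do not run backwards. In chicken liver the mitochondrial form is the main one in the fed bird, and fasting induces the cytosolic one.

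The libraries held between 3831108 and 6623025 fragments in the genes of the table, as read from the scaled counts. In 2 birds, resistant 3 and susceptible 3, no fragment lay on chromosome W, the chromosome carried by hens, against 145 to 427 fragments in the other 4 birds. Each group thus holds 1 such bird, and these 2 birds stood apart for several of the enzymes below. Of 10 hepatocyte markers, 8 were above 0 in every bird, and the summed FPKM of the 10 was 16897 to 64727 in resistant and 35890 to 61686 in susceptible birds. ALB was listed at 0 in resistant 2 and susceptible 3, so a 0 is read here only as listed at 0. All 8 skeletal muscle markers found in the table were at 0 in every bird. Of 10 macrophage markers 7 had a row, with CD14 listed at 0 in every bird. They summed to 244 to 356 FPKM in resistant and 122 to 335 in susceptible birds, highest in resistant 3 (356) and susceptible 3 (335) and at most 245 in the other 4, and their part in the values below was not tested. In bulk liver, fewer cells of a type and less RNA per cell cannot be told apart.

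None of the 6 enzymes passed the test between groups, and none was listed at 0 in any bird. limma called 0 of 9626 genes at a Benjamini-Hochberg adjusted p under 0.05, a background of 0%, and 0 of the 6 enzymes. At an unadjusted p under 0.05 it counted 142 genes lower in resistant birds (1.48%) and 231 higher (2.4%), again with 0 of the 6 enzymes among them. GAPDH alone among the 6 had all resistant birds below all susceptible birds, an arrangement found for 383 of the genes tested (3.98%). The log2 fold change was negative for 5 of the 6 enzymes, with a median of -0.26, against a median of 0.05 and 4548 negative values over all genes tested. After median ratio rescaling or quantile normalization it was negative for 4 of the 6, because the value of FBP1, close to 0, changed sign. The median over all genes tested also moved, between -0.14 and 0.21 over the alternative fits.

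**Figure D1:**
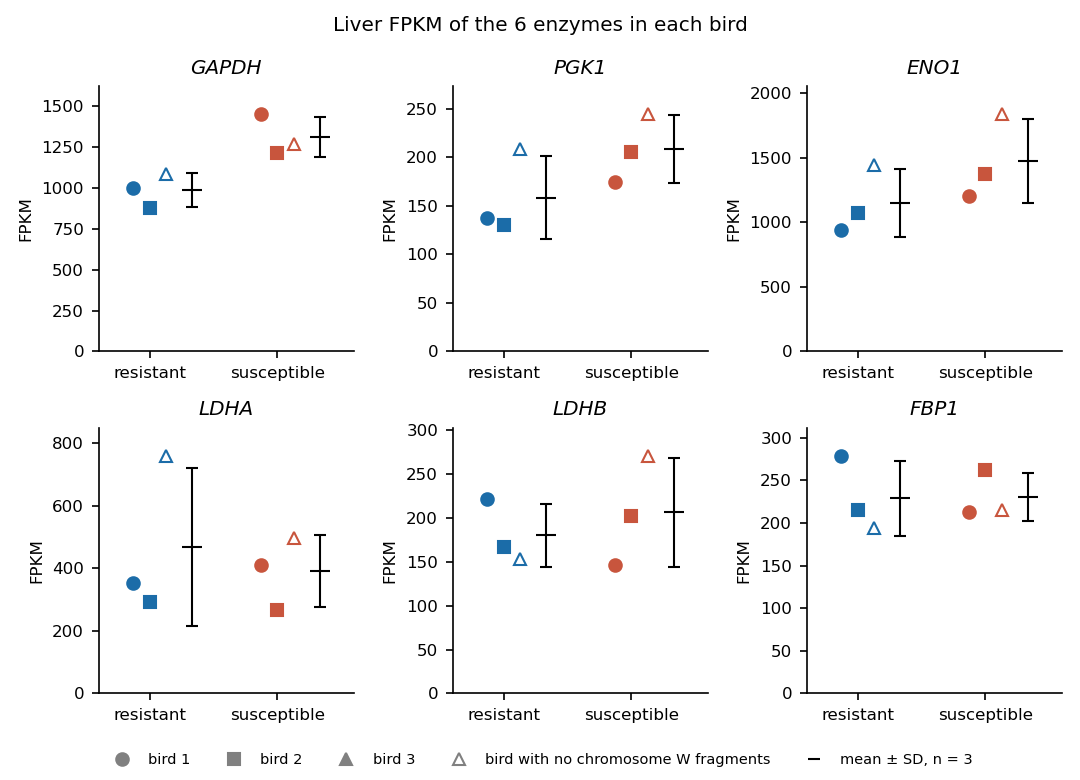
FPKM (vertical axes, from 0) of GAPDH, PGK1, ENO1, LDHA, LDHB and FBP1 in each of 3 resistant (blue) and 3 susceptible (red) birds, with the mean ± SD beside each group; open symbols are the 2 birds with no chromosome W fragments. GAPDH is the panel in which the groups do not overlap, and the open symbols are the highest of their group for ENO1, PGK1 and LDHA.

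GAPDH oxidises glyceraldehyde phosphate in the middle of the pathway and is often used as a reference gene. Its row spans 76434647 to 76437498 of chromosome 1, plus strand of the galGal4 build. Its FPKM was 998, 875 and 1082 across resistant livers 1 to 3, against 1448, 1214 and 1267 across susceptible livers 1 to 3. Every resistant bird lay below every susceptible bird, with the gap between resistant 3 and susceptible 2. The mean was 985 ± 104 for resistant and 1310 ± 123 for susceptible livers (SD, n = 3). The groups differed by -0.41 on the log2 scale (SE 0.36), the 95% interval ran from -1.22 to 0.39, and limma's adjusted p was 0.984. An exact permutation test of the mean log2 value, 2-sided, returned its smallest possible value for groups of this size, p = 0.1. This value follows from the lack of overlap and adds nothing to it. For each of the other enzymes the same permutation test gave a p of at least 0.3. limma pools the spread over genes, so its standard error for a gene with a small spread of its own exceeds what these 6 values alone would give. The sign was the same in all 16 alternative fits, with log2 fold changes of -0.50 to -0.20. With no overlap between groups, leaving out birds or changing the pseudocount could not have changed this sign.

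PGK1 passes phosphate from bisphosphoglycerate to ADP, the next step of the pathway. Its row spans 12898194 to 12909392 of chromosome 4, plus strand. Its FPKM was 138, 130 and 209 across resistant livers, against 174, 206 and 244 across susceptible livers. The groups overlapped through resistant 3, which lay above susceptible 1 and 2. The mean was 159 ± 43.3 for resistant and 208 ± 35.0 for susceptible livers (SD, n = 3), and the log2 difference was -0.41 (SE 0.36, 95% interval -1.21 to 0.39, adjusted p of 0.984 by limma). Without resistant 3 the log2 fold change was -0.62.

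ENO1, alpha-enolase, forms phosphoenolpyruvate and was the most abundant of the 6. Its row spans 3215099 to 3227491 of chromosome 21, minus strand. Its FPKM was 938, 1069 and 1449 across resistant livers, against 1208, 1375 and 1837 across susceptible livers. Within each group the bird with no chromosome W fragments was the highest, and resistant 3 overlapped the susceptible range. The means were 1152 ± 265 and 1473 ± 326 (SD, n = 3), and the log2 difference was -0.36 (SE 0.39, 95% interval -1.24 to 0.52, limma adjusted p of 0.984). It was -0.53 without resistant 3, -0.19 without susceptible 3 and -0.01 after quantile normalization.

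LDHA, the muscle-type subunit of lactate dehydrogenase, varied most among the 6 enzymes. Its row spans 11936824 to 11942582 of chromosome 5, plus strand. Its FPKM was 353, 294 and 758 across resistant livers, against 409, 267 and 496 across susceptible livers. Resistant 3 and susceptible 3 were the 2 highest birds, and the groups overlapped. The means were 468 ± 253 and 391 ± 115 (SD, n = 3), and the log2 fold change was 0.18 (SE 0.45, 95% interval -0.83 to 1.19, limma adjusted p of 0.995). The direction rested on single birds: it was -0.23 without resistant 3 and -0.07 without susceptible 2.

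LDHB, the heart-type subunit, had its highest value in susceptible 3 and its lowest in susceptible 1. Its row spans 67177978 to 67190068 of chromosome 1, plus strand. Its FPKM was 221, 167 and 153 across resistant livers, against 147, 202 and 270 across susceptible livers. The means were 180 ± 36.0 and 206 ± 61.98 (SD, n = 3), and the log2 difference was -0.17 (SE 0.37, 95% interval -1.001 to 0.67, limma adjusted p of 0.995). It was 0.05 without susceptible 3.

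The muscle-type subunit made up most of the lactate dehydrogenase message in every bird. LDHA was 61.4%, 63.8% and 83.2% of the summed FPKM of LDHA and LDHB across resistant livers, against 73.6%, 56.9% and 64.7% across susceptible livers. Resistant 3 was the highest and susceptible 2 the lowest, and the groups overlapped. The mean share was 69.5% ± 11.9 for resistant and 65.1% ± 8.38 for susceptible livers (SD, n = 3). The difference of 4.38 percentage points became -2.48 without resistant 3. The summed FPKM of both subunits ran from 461 in resistant 2 to 911 in resistant 3. In resistant 3 the LDHA level was high while that of LDHB was the lowest of its group, whereas susceptible 3 was the highest of its group for both subunits. The share is a description of the message and not of the enzyme.

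FBP1, fructose bisphosphatase, is a committed enzyme of gluconeogenesis. Its row spans 41305320 to 41316628 of chromosome Z, minus strand. Its FPKM was 278, 216 and 194 across resistant livers, against 212, 263 and 216 across susceptible livers. The groups overlapped fully, with means of 229 ± 43.8 and 230 ± 28.0 (SD, n = 3). The log2 fold change was -0.02 (SE 0.34, 95% interval -0.78 to 0.74, limma adjusted p of 0.999), so the interval still allows a fold of 0.584 to 1.67 for resistant over susceptible. FBP2, its paralogue and neighbour on chromosome Z, named after its values were seen, had at most 0.755 FPKM in any bird.

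**Figure D2:**
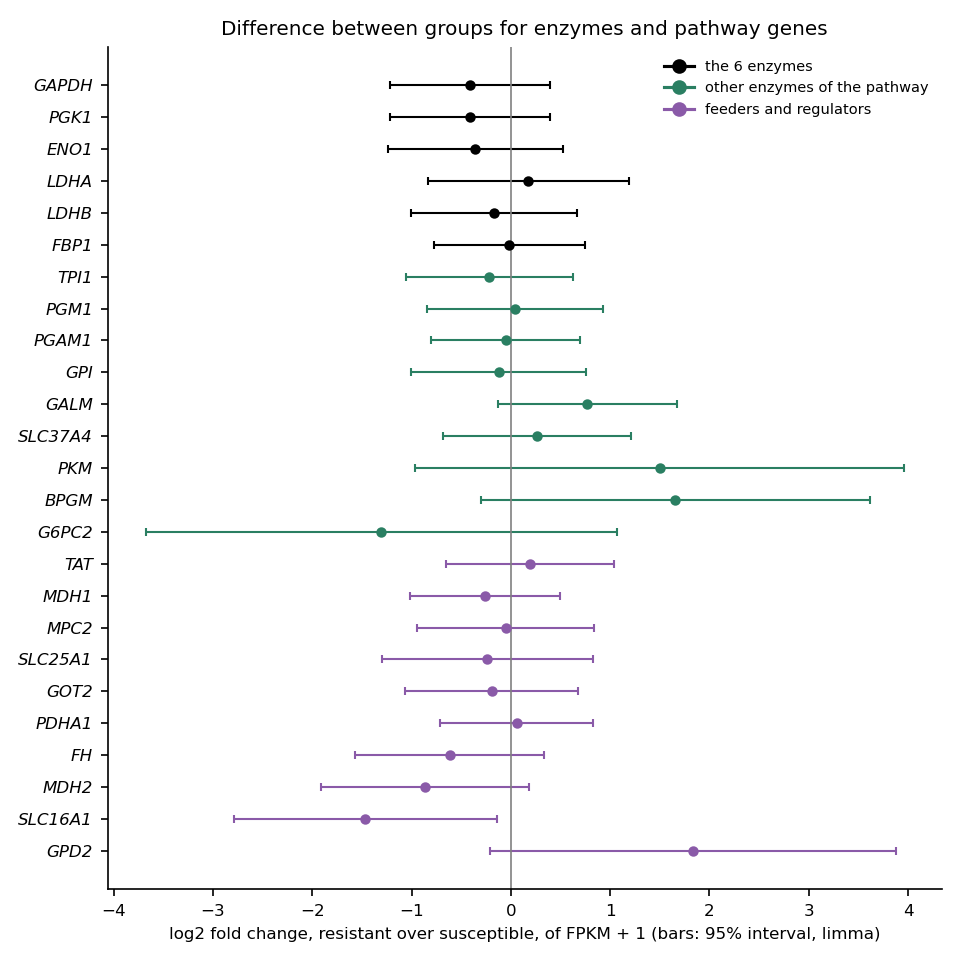
log2 fold change of FPKM + 1, resistant over susceptible (horizontal axis), with 95% intervals from limma, for the 6 enzymes (black), other enzymes of the pathway (green) and feeders and regulators (purple) named by rank of level or p. The intervals of all 6 enzymes include 0, and that of SLC16A1 (-2.79 to -0.14) does not.

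By mean FPKM over the 6 birds the order was ENO1 at 1313, GAPDH at 1147, LDHA at 429, FBP1 at 230, LDHB at 193 and PGK1 at 184. ENO1 and GAPDH did not keep their order. GAPDH was above ENO1 in resistant 1 and susceptible 1, with ENO1 at 0.940 and 0.834 of GAPDH, and below it in the other 4 birds, where the ratio ran up to 1.45. LDHA ranked below both and above the other 3 in all 6 birds. FBP1, LDHB and PGK1 overlapped in level, and their order differed between birds. PGK1 was far below GAPDH, the enzyme before it, in every bird, with GAPDH 5.18 to 8.30 times higher. The 6 enzymes together held 0.673% to 0.806% of all FPKM across resistant livers, against 0.762% to 0.962% across susceptible livers. These shares also depend on the total. ALB was listed at 0 in resistant 2 and susceptible 3, against 24858 to 30679 FPKM in the other 4 birds. The highest share, 0.962%, was that of susceptible 3, which also had the highest summed FPKM of the 6 enzymes, 4330. Resistant 2, the other bird with ALB at 0, had the lowest sum, 2751, and a share of 0.782%.

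The enzymes differed in how evenly the birds expressed them. The coefficient of variation over the 6 birds was 14.3% for FBP1, 17.9% for GAPDH, 24.2% for PGK1, 24.3% for ENO1, 24.6% for LDHB and 42.1% for LDHA. Over 537 genes averaging at least 100 FPKM with no 0 in any bird, the median was 34.5%. FBP1 was steadier than most of these, with 4.66% of them below it, whereas 67.2% were below LDHA. The highest bird exceeded the lowest by 2.84-fold for LDHA and by 1.44-fold for FBP1. Each value rested on at least 764 fragments, the lowest being LDHB, and up to 16646 for ENO1, and fragments cover counting error only.

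Of 31 further enzyme names of the pathway, 18 had a row and 14 passed the filter. limma called 0 of the 14 at an adjusted p under 0.05 and 0 at an unadjusted p under 0.05, with 7 lower and 7 higher in resistant birds by sign. Their median log2 fold change was -0.01, against 0.05 over all genes tested, and it was 0.09 after median ratio rescaling and 0.03 after quantile normalization.

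GALM, which interconverts the anomers of galactose and glucose, was the 1 enzyme of these 14 with no overlap between groups. Its FPKM was 72.6, 60.4 and 52.2 across resistant livers, against 48.9, 32.0 and 28.3 across susceptible livers, a log2 fold change of 0.77 (SE 0.40) with a limma adjusted p of 0.984. Every resistant bird lay above every susceptible bird, as for 4.44% of all genes tested. TPI1, PGAM1 and GPI, enzymes that the liver uses in both directions, had overlapping groups. Their log2 fold changes were -0.22, -0.05 and -0.12 over all birds. Over only the 4 birds with chromosome W fragments they were -0.62, -0.17 and -0.58. TPI1 had means of 154 ± 30.5 and 182 ± 50.9, PGAM1 of 135 ± 8.89 and 141 ± 21.1, and GPI of 124 ± 36.1 and 136 ± 42.2 (SD, n = 3, resistant first). PGM1, which links glucose phosphate to glycogen, had 143 ± 31.4 and 143 ± 47.1. SLC37A4, which carries glucose phosphate into the endoplasmic reticulum, had 50.4 ± 17.5 and 40.9 ± 9.83.

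Low enzymes of the pathway could not be compared firmly, because several were listed at 0 in some birds. PKM, a pyruvate kinase, had 2.49, 1.32 and 16.2 FPKM across resistant livers, against 0, 0 and 5.17 across susceptible livers, highest within each group in the bird with no chromosome W fragments. Its row overlaps those of PARP6 and GRAMD2. BPGM, bisphosphoglycerate mutase, had 1.41, 5.23 and 5.52 against 2.13, 0 and 0. G6PC2, a glucose phosphatase subunit, had 14.0 in susceptible 3 and was listed at 0 in the other 5 birds. HK1, a hexokinase, and PFKL, the liver-type phosphofructokinase, reached at most 7.88 and 12.7 FPKM in any bird, and both were picked for naming after their values were seen.

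**Figure D3:**
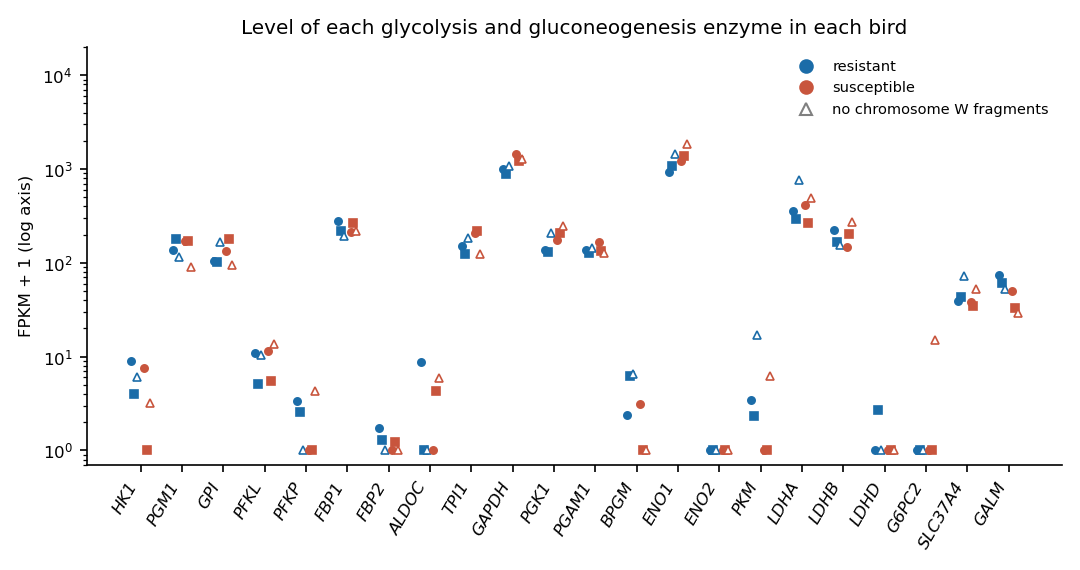
FPKM + 1 (log axis) of 22 enzymes and transporters of the pathway in each resistant (blue) and susceptible (red) bird; circles, squares and triangles are birds 1, 2 and 3, and open triangles are the 2 birds with no chromosome W fragments. ENO1 and GAPDH lie between 875 and 1837 FPKM, and kinases such as HK1, PFKL and PKM lie far below them.

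Among 46 names of feeders and regulators of the pathway, 34 had a row and 31 passed the filter. limma called 0 of the 31 at an adjusted p under 0.05. At an unadjusted p under 0.05 it counted 1, lower in resistant birds, beside the 1.48% of all genes. By sign 23 were lower and 8 higher in resistant birds, beside 4548 lower of all 9626 genes tested. The median log2 difference was -0.24, against 0.05 over all genes tested. It stayed negative under all 16 alternative fits, between -0.38 and -0.14. The replicate block and a covariate for the presence or absence of chromosome W fragments could not change it. With 0s as missing it was -0.35, and the median over all genes was then -0.14. All resistant birds lay below all susceptible birds for 4 of the 31, beside the 3.98% of all genes tested. These were SLC16A1 and, named after their values were seen, SLC25A13, DLAT and SLC2A9.

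SLC16A1, a monocarboxylate transporter that carries lactate and pyruvate across the cell membrane, had the smallest p of the list. Its FPKM was 5.58, 6.12 and 11.7 across resistant livers, against 16.7, 17.0 and 38.4 across susceptible livers. Each resistant bird was below each susceptible bird, and the number 3 bird was the highest of each group. The means were 7.80 ± 3.38 and 24.0 ± 12.4 (SD, n = 3). The log2 difference was -1.47 (SE 0.59) and its 95% interval -2.79 to -0.14, while limma's p was 0.034 unadjusted and 0.984 adjusted. It was -1.09 without susceptible 3 and -1.76 without resistant 3. The unadjusted limma p passed 0.05, so that the interval took in 0, without susceptible 3 (0.134), without resistant 1 (0.0968), without resistant 2 (0.0799) and over only those 4 birds that carried chromosome W fragments (0.0547). SLC25A13, a mitochondrial aspartate and glutamate carrier, had 78.8, 85.9 and 85.7 FPKM across resistant livers, against 99.5, 99.4 and 106 across susceptible livers. DLAT, a subunit of pyruvate dehydrogenase, had 29.0, 33.0 and 27.2 against 46.8, 51.6 and 36.8. SLC2A9, known in human as a urate transporter, had 16.8, 23.0 and 29.5 against 31.7, 36.3 and 32.3.

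The most abundant genes of the list had overlapping groups. TAT, tyrosine aminotransferase, had means of 1133 ± 266 and 983 ± 167, and MDH1, the cytosolic malate dehydrogenase, of 363 ± 58.4 and 433 ± 45.3 (SD, n = 3, resistant first). MPC2, a subunit of the mitochondrial pyruvate carrier, had 384 ± 140 and 392 ± 99.0, and SLC25A1, the citrate carrier, 270 ± 96.2 and 330 ± 152. GOT2, the mitochondrial aspartate aminotransferase, had 230 ± 10.4 and 280 ± 125, and PDHA1, the catalytic subunit of pyruvate dehydrogenase, 142 ± 16.0 and 138 ± 28.7. MDH2, FH and GPD2 were named for a small p and not for their level, and their groups overlapped too. Their unadjusted limma p was 0.095, 0.178 and 0.073, and the adjusted p of each was 0.984. MDH2, the mitochondrial malate dehydrogenase, had 51.5 ± 24.4 and 87.3 ± 15.9, a log2 fold change of -0.87, and -0.41 without resistant 3. FH, fumarase, had 99.2 ± 33.4 and 152 ± 47.3. Without resistant 2 its log2 fold change was -0.32, against -0.62 with all birds. GPD2, the mitochondrial glycerol phosphate dehydrogenase, had 0, 4.69 and 6.95 FPKM across the resistant livers, with 0 listed for all 3 susceptible ones.

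The row named PEPCK differed between birds more than any of the 6 enzymes. It was listed at 0 in resistant 1 and 2, had 499 FPKM in resistant 3, and had 15.0, 1.97 and 80.6 in susceptible 1 to 3. Resistant 3 and susceptible 3, the birds with no chromosome W fragments, were the 2 highest, and the groups overlapped fully. limma gave no call (adjusted p of 0.995), and up to 5333 fragments stood behind a value. The row is given on the minus strand of chromosome 20 from 11834690 to 11906056, and PMEPA1, on the plus strand, is given with the same start and end. A span in the table can thus cover more than 1 gene, and the sources used here do not state whether reads of both were told apart by strand. PMEPA1 was low throughout, at 9.23, 0 and 0 FPKM across resistant livers, against 14.8, 20.7 and 12.9 across susceptible livers, and its values do not follow those of PEPCK. The planned share of PCK1 in PCK1 and PCK2 was not formed, since no row carried the symbol PCK2.

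**Figure D4:**
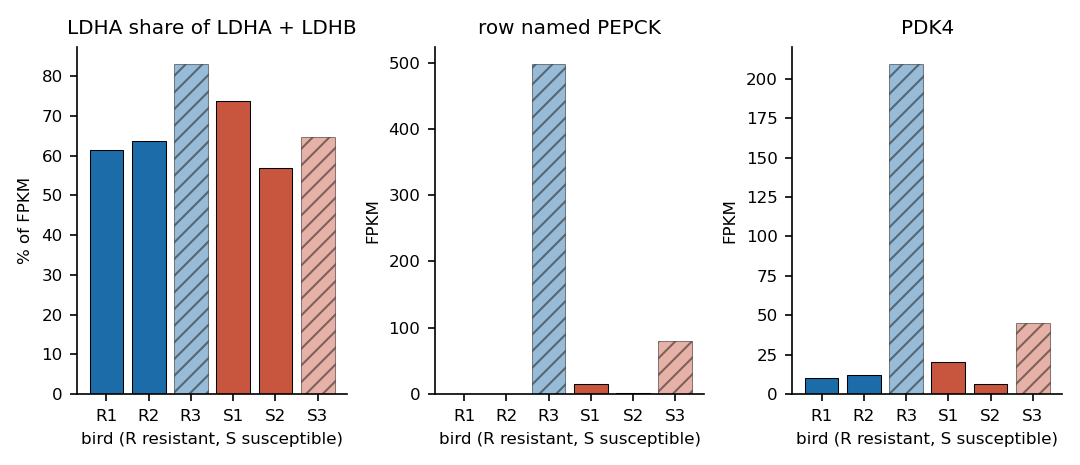
LDHA as a percentage of the summed FPKM of LDHA and LDHB (left), FPKM of the row named PEPCK (middle) and FPKM of PDK4 (right) in each bird; bars start at 0, blue bars are resistant and red bars susceptible, and hatched pale bars are the 2 birds with no chromosome W fragments. The PEPCK and PDK4 values are highest in resistant 3 (499 and 209.7) and next in susceptible 3 (80.6 and 45.2).

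The 2 birds with no chromosome W fragments were also the 2 highest birds for ENO1, LDHA and PGK1, but not for GAPDH, LDHB or FBP1. Of 4539 genes above 0 in every bird that averaged at least 5 FPKM, 16.6% had both of these birds above the other 4, and 7.51% had both below. This arrangement was noticed in the values and was not tested. ENO1 had 1449 and 1837 FPKM in these birds, and at most 1375 in the other 4. PGK1 had 209 and 244, and at most 206 in the others. LDHA had 758 and 496, and at most 409. In the 4 birds with chromosome W fragments the log2 fold change between groups was -0.50 for GAPDH, -0.50 for PGK1 and -0.36 for ENO1, near the values over all birds. For LDHA and LDHB it was -0.04 and 0.16, of opposite sign to those over all birds.

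Some markers of other cell types and of hepatocytes stood apart in the same 2 birds. Of the 7 macrophage markers, 3 had both birds above the other 4, as had 16.6% of the 4539 genes described above. MARCO, a scavenger receptor, had 113 FPKM in resistant 3 and 91.0 in susceptible 3, against at most 47.2. CSF1R, a growth factor receptor of macrophages, had 54.1 and 36.6 against at most 28.4, and LY86 had 74.9 and 35.4 against at most 34.8. The remaining macrophage markers did not follow. C1QA was lowest in resistant 3 (17.0) and highest in susceptible 3 (63.4), against 28.8 to 50.2 in the others. TIMD4 and C1QB lay within the range of the other 4 birds, and CD14 was listed at 0 throughout. The 6 T cell markers summed to 61.3 and 63.0 FPKM in these birds and to at most 37.5 in the others, whereas the 4 B and plasma cell markers summed to 22.5 and 12.9, against at least 31.1. Of the T cell markers only CD3D had both birds above the others, at 22.8 and 46.9 against at most 17.4. In susceptible 3 it made up most of the sum. CD3E was 7.56 there, against 16.5 in resistant 1, and CD4, CD8A and CD8B were listed at 0. Of the B and plasma cell markers BLNK and IGJ had both below, IGJ narrowly, at 15.36 in resistant 3 against 15.40 in resistant 1. The sums of the other lists did not set both birds apart. They were 269 and 144 FPKM for endothelium, against at most 146 in the other 4 birds. For stellate cells they were 229 and 203, against 167 to 247, and for bile duct 22.6 and 25.7, against 22.8 to 38.5. Of the 6 endothelium markers 2 had both above. PECAM1 had 86.9 and 51.6 FPKM against at most 47.9, and KDR 9.96 and 9.20 against at most 5.85. EPCAM, 1 of the 4 bile duct markers, had both below, at 19.3 and 21.3 against at least 22.8. Of the 10 hepatocyte markers, 4 had both birds above the others, namely the fibrinogen genes FGA, FGB and FGG, and APOH. FGA had 4614 and 4528 FPKM, against at most 1620. AHSG, the gene of the plasma protein fetuin, was lower in both, at 628 and 1107 against at least 2016. Their part in the values of ENO1, LDHA, PGK1, PEPCK and PDK4 was not tested.

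FBP1 lies on chromosome Z, which is present in 2 copies in male birds and 1 in hens, and it did not have its 2 highest values in the birds with no chromosome W fragments. Over 216 chromosome Z genes and 4310 autosomal genes, the median Z gene exceeded the median autosomal gene by 0.46 in resistant 3 and 0.26 in susceptible 3, as log2 deviations from the mean of the birds. In the other 4 birds this difference was -0.24 to -0.13. FBP1 stood at -0.23 in resistant 3 and -0.08 in susceptible 3 on the same scale. Both birds lay above the other 4 for 41.2% of the Z genes and for 15.3% of the autosomal genes. FBP1 was not among them.

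**Figure D5:**
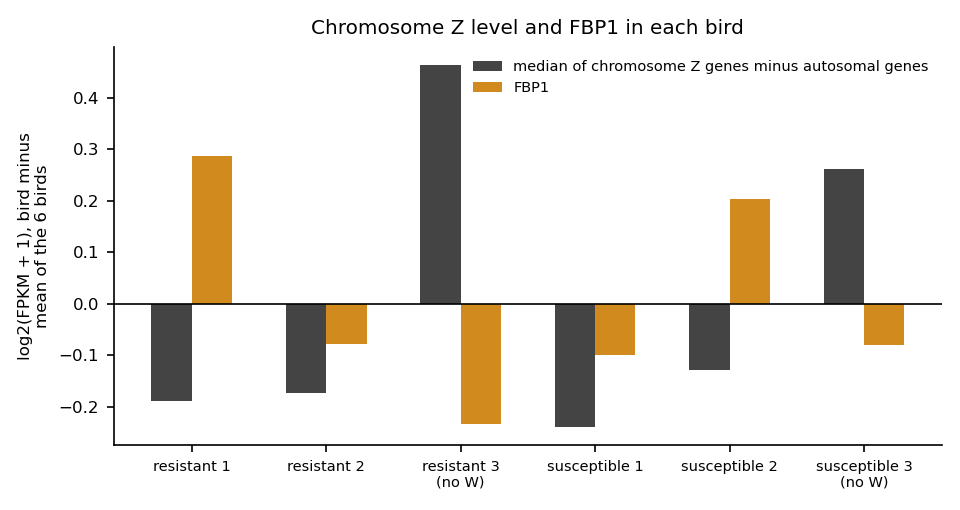
Deviation of each bird from the mean of the 6 birds in log2(FPKM + 1) (vertical axis), for the median of chromosome Z genes minus that of autosomal genes (grey) and for FBP1 (orange). The grey bars are above 0 in the 2 birds with no chromosome W fragments (0.46 and 0.26), where FBP1 is below 0 (-0.23 and -0.08).

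The genes whose pattern over the 6 birds was most like that of each enzyme were ranked by Pearson's r of log2(FPKM + 1) among 2073 genes with a symbol and no 0 that averaged at least 20 FPKM. These values describe 6 birds that fall into the 2 kinds above, and all genes were read from the same 6 libraries. LDHA was closest to PRPS2 (r = 0.999), followed by MAL2 and CAPZA2. ENO1 was closest to LPGAT1 (r = 0.98), then CD36 and COX1, and PGK1 to ND4L (r = 0.99), then COX1 and LPGAT1. ENO1 and PGK1 thus had 2 of their 3 closest genes in common. GAPDH was closest to IPO7 (r = 0.98), then GDI2 and PI4K2B, and FBP1 to RPL14 (r = 0.97), then NME2 and PRDX3. LDHB had the loosest match, RAB30 (r = 0.93), followed by SRPRB and MRPL47. Of the 2073 genes, 66 reached an r of 0.9 with LDHA and 3 with LDHB.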

How the data were processed

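Total RNA from the livers of 6 chickens, 3 per group, was sequenced, with groups and bird numbers taken from the sample titles and table columns matched by the birds' description numbers. FPKM values were made by the authors. Per the submitters' processing notes, cutadapt 1.9.3, HISAT2 2.0.4, Cufflinks, Cuffdiff and the galGal4 build were used, with no role stated. A second signal per gene and bird was deposited by the authors as counts. These are not whole: above 0.1, 99.4% to 99.7% of a bird's values were multiples of 1 step within 0.02 steps, and 2 to 6 values per bird lay between 0 and 0.1. Each step was read as 1 fragment, which gave the fragment numbers and totals of the table's genes, and no counting model was run. There were 0 columns of other samples. Table starts were raised by 1 to count from 1.

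log2(FPKM + 1) was fitted in R 4.3.3 by limma 3.58.1, with lmFit and trended eBayes, on the 9626 genes that averaged at least 0.5 FPKM, as resistant minus susceptible, 2-sided, with Benjamini-Hochberg adjustment at 0.05. This scale understates changes of low genes. The fit was tested on simulated data, in which genes varied independently and the changes were larger than those of the 6 enzymes. That test does not show whether changes as small as theirs would be found. The enzymes and both lists were chosen with earlier results of these data known, and 1 gene of the enzyme list is not reported here. Of each list the 6 genes of highest mean and the 4 of smallest p are named, and for each enzyme the 3 genes most like it; the text marks pathway genes picked outside this rule. RefSeq (GRCg7b) served for names only, and held PEPCK as a synonym of PCK1. Alternatives were other pseudocounts, filters and scalings, the scaled counts, a replicate block, 0s as missing, leaving out each bird, and the 4 birds with chromosome W fragments. A further fit, chosen after the data were seen, had the presence or absence of those fragments as a covariate. Plots used Python 3.11.15 and matplotlib 3.10.9.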

Additional observations from a re-analysis of the deposited data

How the results depend on the processing

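limma called 0 genes over the whole table, 0 of the 6 enzymes and 0 of the other pathway genes under each of the 16 alternative fits, as with all birds. The lowest adjusted p over all genes lay between 0.15 and 1.00 in these fits, and the lowest among the 6 enzymes between 0.838 and 1.00. GAPDH, PGK1 and ENO1 kept a negative log2 fold change in all 16, whereas LDHA changed sign in 3, LDHB in 2 and FBP1 in 6. The filters, 0s as missing, the replicate block and the chromosome W covariate left these fold changes at their main value. Every enzyme was above the filters with no 0, and the groups are balanced over these factors, so this was fixed in advance. For GAPDH, whose groups do not overlap, the sign was also fixed when birds were left out. The count of genes at an unadjusted p under 0.05 moved with the filter: 105 lower and 81 higher with a filter of 5 FPKM, and 251 and 69 with 0s as missing. Without resistant 2 the lower count was 78. In the 4 birds with chromosome W fragments 390 were higher. The median of all genes tested moved from 0.05 to 0.13 after median ratio rescaling and to 0.21 with the scaled counts. It fell to -0.14 with 0s as missing, -0.06 without susceptible 2 and -0.01 with a filter of 5 FPKM. The difference in the LDHA share ranged from -2.48 to 8.65 percentage points when birds were left out in turn, and was -2.67 in the 4 birds with chromosome W fragments. The labels do not say that bird numbers pair birds. Deviations of same-numbered birds correlated at 0.01, 0.06 and 0.24 over 5992 genes, and resistant 1 correlated best with susceptible 2 (0.17). The 0.24 was that of resistant 3 with susceptible 3, the 2 birds with no chromosome W fragments. Bird number and the lack of those fragments cannot be told apart for this pair, and a block by number also takes in the chromosome W covariate. A fit with the replicate number as a block called 0 genes, with 184 lower and 274 higher at an unadjusted p under 0.05. The planned counting models were not run, because the deposited counts are not whole fragments throughout, and rows were not summed by symbol, since each enzyme had 1 row. With 3 birds per group the 95% interval of GAPDH runs from -1.22 to 0.39 on the log2 scale.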

Other observations

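Most feeders and regulators of the pathway had a wider range within a group than between the group means. This is not particular to those below, since MPC2 and GOT2 had it too. So had SLC16A1 and SLC2A9, whose groups did not overlap, whereas SLC25A13 and DLAT had not. The genes below were picked for this paragraph once their values had been seen, though TAT and SLC25A1 were already named by level. PDK4, which inhibits pyruvate dehydrogenase, had 9.94, 12.3 and 209.7 FPKM across resistant livers, against 20.2, 6.51 and 45.2 across susceptible livers. PPARGC1A, a coactivator of gluconeogenic genes, had 1.45, 1.85 and 6.03 against 0, 2.05 and 6.61. TAT had 1061, 911 and 1428 against 959, 830 and 1161. For these 3 genes, as for PEPCK, resistant 3 and susceptible 3 lay above the other 4 birds. SLC2A1, a glucose transporter, had 3.86 and 3.63 FPKM in these birds and was listed at 0 in the other 4. Of the 31 feeders and regulators that passed the filter, only PDK4, PPARGC1A, TAT and SLC2A1 had this arrangement. SLC25A1 and SLC2A2 lay the other way in the same birds. Of 4539 genes with no 0 that averaged at least 5 FPKM, 16.6% had both birds above the other 4 and 7.51% had both below. PPARGC1A, SLC2A1 and PEPCK, each with a listed 0, are outside that set. SLC25A1 had 357, 286 and 167 FPKM across resistant livers, against 353, 469 and 168 across susceptible ones. SLC2A2, the liver glucose transporter, had 26.3, 48.3 and 15.4 against 126, 44.7 and 24.8. The labels do not give the sex or the feeding state of any bird, and no test was run on this arrangement.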
